A study of Rattus norvegicus with 5 samples.

Results

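The insulin and insulin-like growth factor (IGF) receptor signalling genes described here are the receptor genes Igf1r, Insr and Igf2r, the receptor substrate genes Irs1 and Irs2, and Igfbp3, which encodes an IGF binding protein. They were chosen by symbol: each probe set that the array's platform table pairs with 1 of these 6 symbols was taken, which gave 8 probe sets of 15866. Igf2r and Igfbp3 had 2 probe sets each and the other 4 genes had 1. The choice rested on earlier results of these data, in which Igf1r was lower in the parental line than in every clone, so values of the clones against the parental line are given as a description only.

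RNA came from INS-1, an insulin-secreting line of rat insulinoma origin, and from 4 of its clones. The clones carry an FRT site, into which Flp recombinase can place a chosen gene, and the tetracycline repressor, which silences that gene in the absence of tetracycline. The groups were set 5-3 with the clones 5-3.14 and 5-3.19, set 1-1 with the clones 1-1.2 and 1-1.16, and the unmodified parental line, with 1 array each and 5 in all. The sample labels mention no inserted gene and no added tetracycline, and do not say whether the clones of a set share an origin. Each group is 1 or 2 cell clones or lines, so a difference between groups is also a difference between single clones.

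Insulin and the IGFs bind paired receptor tyrosine kinases. The active receptor phosphorylates the docking proteins IRS1 and IRS2, which recruit PI3 kinase and so activate AKT, and AKT in turn holds the FOXO transcription factors outside the nucleus. IGF2R has no kinase: it carries IGF2 and enzymes tagged with mannose 6-phosphate to lysosomes. IGF binding proteins hold IGFs outside the cell. In mice, beta cells that lack IRS2 fail to keep up their mass.

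The stretches before the annotated start sites are shown for Igf1r and Igfbp3, whose signals were highest in set 1-1, and for Insr, whose signal was lowest there. RefSeq sequences of GRCr8 were found for 5 of the 6 genes, Irs2 being the other one. Capitals mark the E-box CACGTG, the forkhead motif TGTTTAC and the TATA-like run TATATA, each searched on both strands. The 250 bases of Igf1r lie at chr1:130959747-130959996 on the plus strand, those of Insr at chr12:6128804-6129053 on the minus strand, and those of Igfbp3 at chr14:86277945-86278194 on the minus strand.
Igf1r: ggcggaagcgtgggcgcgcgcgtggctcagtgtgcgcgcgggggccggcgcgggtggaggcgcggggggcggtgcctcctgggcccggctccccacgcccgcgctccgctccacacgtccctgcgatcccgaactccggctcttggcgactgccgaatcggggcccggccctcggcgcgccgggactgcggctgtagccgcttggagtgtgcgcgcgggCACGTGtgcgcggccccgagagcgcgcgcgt
Insr: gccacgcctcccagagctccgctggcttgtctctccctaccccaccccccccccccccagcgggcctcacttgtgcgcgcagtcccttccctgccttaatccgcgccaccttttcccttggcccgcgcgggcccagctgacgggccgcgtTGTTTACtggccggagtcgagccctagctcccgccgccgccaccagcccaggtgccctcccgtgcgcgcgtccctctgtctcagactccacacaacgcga
Igfbp3: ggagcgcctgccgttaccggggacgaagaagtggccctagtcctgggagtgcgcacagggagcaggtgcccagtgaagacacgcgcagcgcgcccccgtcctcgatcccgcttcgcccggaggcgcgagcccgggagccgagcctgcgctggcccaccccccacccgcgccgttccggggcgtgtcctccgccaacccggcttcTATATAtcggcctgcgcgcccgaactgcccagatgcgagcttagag

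The Igf1r stretch held 1 E-box, 31 bases before the start, and the Igf2r stretch held 2. The Insr stretch held 1 forkhead motif, 100 bases before the start, and the Igfbp3 stretch held 1 TATA-like run, 46 bases before it. Over 33469 rat promoter stretches of the same length, 5.59% held the E-box, 3.21% the forkhead motif and 5.45% the TATA-like run. The GC box GGGCGG, the motif bound by Sp1 family factors, was found in the stretches of Igf1r (1 match), Igf2r (2 matches) and Irs1 (2 matches), and in 30.5% of all stretches. All 5 stretches were rich in G and C, from 68% in Igf2r to 79.6% in Igf1r, against a median of 51.2% over all stretches. These matches describe letters in the reference and were not measured in the cells.

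Signals are linear, in arbitrary units, and their trimmed mean was 1000.24 to 1000.28 on every array. Precision is limited by how few arrays there are. Of the 15866 probe sets, 9520 reached the brightness limit, a mean log2 level that stands for a signal of about 194, and were tested. All 9 measured genes of 13 beta cell markers were above that limit on average. Their summed signal was 87891 to 91245 in set 5-3, 77001 to 128850 in set 1-1 and 122810 in the parental line. The measured acinar (5 genes), endothelial (3), leukocyte (4), and delta and PP cell (3) markers were all below it. Of the ductal list 2 of 4 genes were measured and 1, Krt7, was above it, and the list's summed signal was 903.7 to 1328.4 in set 5-3, 939.8 to 1003.9 in set 1-1 and 1896.7 in the parental line. All 6 fibroblast markers were measured and 1, Thy1, was above it, with summed signals of 1486.7 to 2542.1 in set 5-3, 1367 to 2328.1 in set 1-1 and 1493.7 in the parental line. The alpha cell list, of which 1 gene of 4 (Gcg) was measured, read 20550 and 24434 in set 5-3, 2063.6 and 17772 in set 1-1 and 6874.5 in the parental line, and the part of these markers in the differences below was not tested. The added control RNAs lys, phe, thr and trpn stood at 1.22, 1.20, 1.23 and 1.14 in set 5-3 relative to set 1-1, and dap at 0.997. The part of these controls in the differences between the sets was not tested. In the clones relative to the parental array, lys stood at 0.280. The other added RNAs (phe, thr, trpn and dap) stood at 0.633 to 0.785 in the clones relative to the parental array, and the hybridisation controls at 1.25. The hybridisation controls stood at 0.976 in set 5-3 relative to set 1-1.

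Igf1r, the receptor for IGF1 and IGF2, was present at 3 levels. Its signal was 1296 in 5-3.14 and 1269 in 5-3.19, 2218 in 1-1.2 and 2047 in 1-1.16, and 423 in parental INS-1. No array of 1 group overlapped another group, and clones of a set lay close together: the mean was 1283 ± 19.7 in set 5-3 and 2132 ± 121 in set 1-1 (SD, n = 2 each). Relative to the parental array the log2 difference was 1.55 in set 5-3 and 2.27 in set 1-1, the contrast on which the gene was chosen. In bulk RNA, fewer cells that express a gene and less of its RNA per cell cannot be told apart. With a single parental array, its handling cannot be told apart from the line, and the part of its brighter added controls and dimmer hybridisation controls in these values was not tested.

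**Figure D1:**
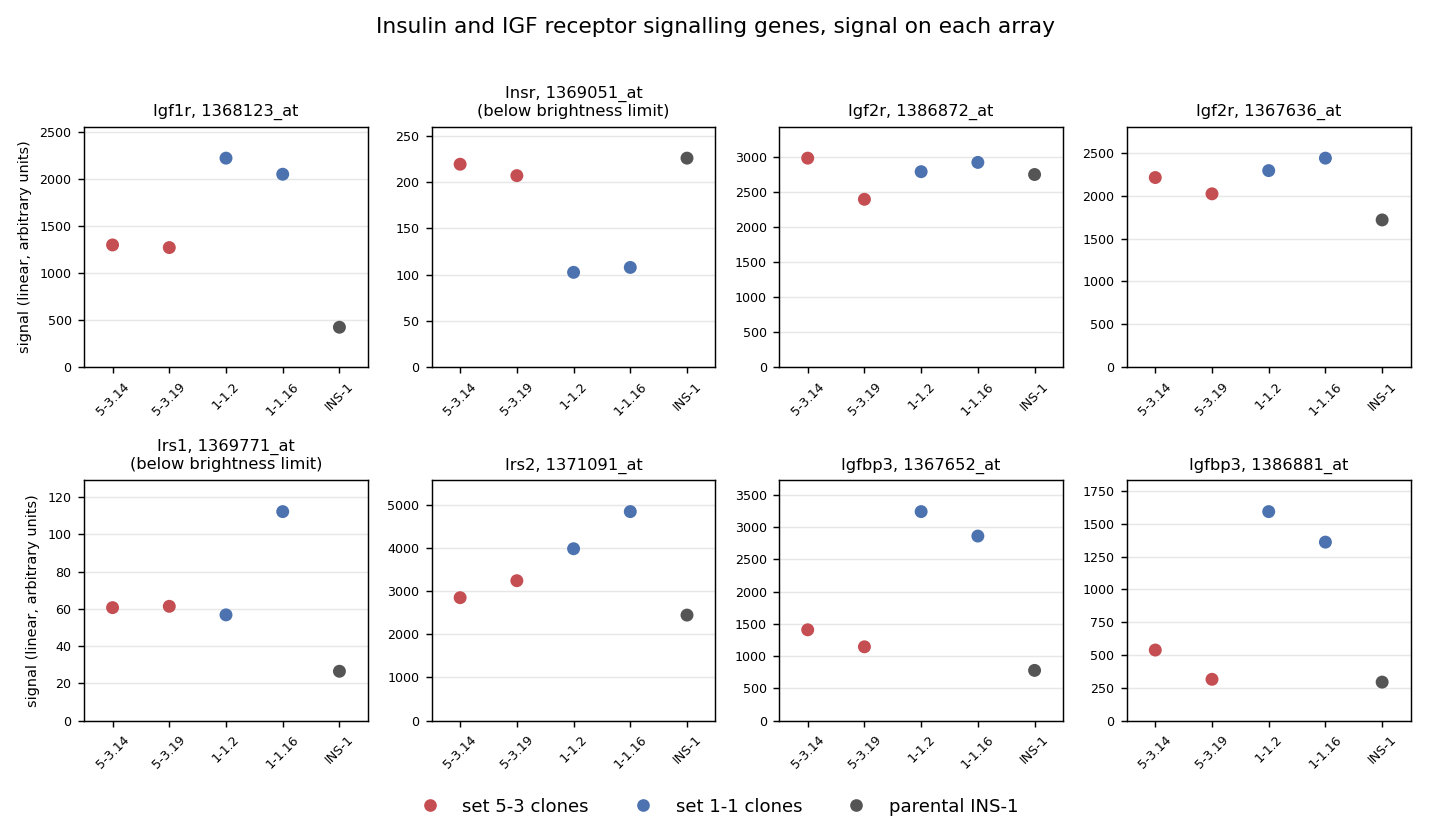
Signal of the 8 member probe sets on each of the 5 arrays (vertical axes, linear arbitrary units from 0; 1 point per array; red, set 5-3 clones; blue, set 1-1 clones; grey, parental INS-1). Igf1r reads 2218 in 1-1.2 and 423 in the parental line, and Insr is near 100 in both set 1-1 clones and over 200 on the other 3 arrays.

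The stated reason for choosing the genes did not use the contrast between the clone sets, but earlier results of these data were known. In this contrast Igf1r differed by −0.72 ± 0.21 on the log2 scale (set 5-3 minus set 1-1, SE). The 95% interval was −1.23 to −0.22. The difference missed the threshold after adjustment over all 9520 probe sets (limma, unadjusted p = 0.0119, adjusted p = 0.200). Of all probe sets tested, 12.1% had a larger absolute difference between the sets.

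The insulin receptor gene Insr had the opposite order of the clone sets. It read 219 in 5-3.14 and 207 in 5-3.19, 102 in 1-1.2 and 108 in 1-1.16, and 226 in the parental line. The set 5-3 clones lay next to the parental line, below it by 0.04 and 0.11 on the log2 scale, while both set 1-1 clones were at about 0.465 of the parental signal. The mean was 213 ± 8.70 in set 5-3 and 105 ± 3.75 in set 1-1 (SD, n = 2 each), and set 1-1 was thus the low one for Insr and the high one for Igf1r. Insr was below the brightness limit and so was not tested with the rest. With no limit its log2 difference was 0.89 ± 0.33 (set 5-3 minus set 1-1, SE, limma adjusted p = 0.357).

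Igf2r differed little between arrays, and its probe sets gave different pictures. The brighter one read 2988 in 5-3.14 and 2399 in 5-3.19, 2794 in 1-1.2 and 2927 in 1-1.16, and 2754 in the parental line, so that all groups overlapped. The other read 2214 and 2024 in set 5-3, 2295 and 2440.4 in set 1-1, and 1719 in the parental line, with every clone above the parental array. Between the sets the log2 difference was −0.09 by the brighter probe set (95% interval −0.60 to 0.42) and −0.16 by the other (−0.65 to 0.33), with limma adjusted p = 0.889 and 0.781.

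**Figure D2:**
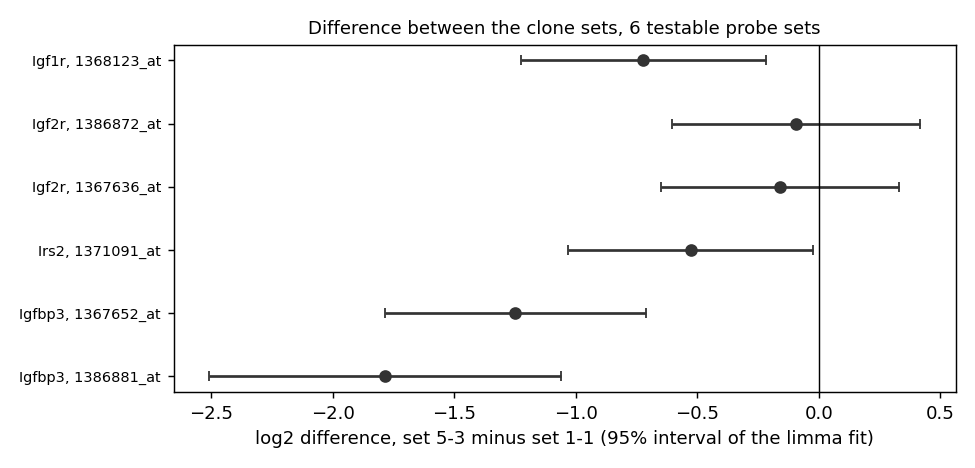
Log2 difference between the clone sets (horizontal axis, set 5-3 minus set 1-1) for the 6 member probe sets that were bright enough to test; points are limma estimates and bars 95% intervals. The intervals of both Igf2r probe sets include 0, and those of Igf1r, Irs2 and both Igfbp3 probe sets lie below it before any adjustment for the number of tests.

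The docking protein gene Irs2 was above the brightness limit and Irs1 was not. Irs2 read 2852 in 5-3.14 and 3246 in 5-3.19, 3988 in 1-1.2 and 4849 in 1-1.16, and 2448 in the parental line, an order that puts the groups as Igf1r does. The spread within each set was wider than for Igf1r, and the lowest set 1-1 clone stood 1.23-fold above the highest set 5-3 clone. Its log2 difference was −0.53 ± 0.21 (set 5-3 minus set 1-1, SE, limma adjusted p = 0.310). Irs1 was close to the floor of the array: it read 60.7 in 5-3.14 and 61.4 in 5-3.19, 56.8 in 1-1.2 and 112 in 1-1.16, and 26.5 in the parental line. The sets overlapped for Irs1, and the parental array was below every clone. With no brightness limit its log2 difference between the sets was −0.31 ± 0.39 (SE, limma adjusted p = 0.818).

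Igfbp3, whose product binds IGFs outside the cell, had the widest separation between the clone sets. Its brighter probe set read 1407 in 5-3.14 and 1143 in 5-3.19, 3239 in 1-1.2 and 2859.6 in 1-1.16, and 778 in the parental line. The other read 537.5 and 314 in set 5-3, 1592 and 1359.7 in set 1-1, and 293 in the parental line. By both, the set 1-1 clones were 2.03-fold or more above either set 5-3 clone, while 5-3.19 came within 0.09 (log2) of the parental array by the dimmer one. The log2 differences were −1.25 ± 0.23 and −1.78 ± 0.30 (set 5-3 minus set 1-1, SE). Neither passed limma's threshold (adjusted p = 0.0835 and 0.0705). Only 2.89% and 1.05% of tested probe sets had a larger absolute difference. Leaving out 1 clone gave log2 differences of −1.40 to −1.10 and −2.15 to −1.42. These fits give the remaining clone of the set the spread of the other groups.

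Counted over the 8 probe sets, 5 were lower in both set 5-3 clones than in both set 1-1 clones, 1 was higher (Insr) and 2 overlapped. All 5 were among the 6 probe sets bright enough to test. Of all tested probe sets, 24.5% were lower in this sense and 22.1% higher. At an adjusted p under 0.05 limma called 0 of the 6, where 0.420% of all tested probe sets were called (0.221% higher and 0.200% lower in set 5-3). An unadjusted p under 0.05 (limma) was found for 4 of the 6, against 14.8% of all. Both Igfbp3 probe sets were among these 4 and among the 5 lower ones, and they are not separate evidence. Of the 8, 6 were above the parental array in all 4 clones, 5 of them bright enough to test, beside 18.4% of all tested probe sets; nothing is read from this count, since the genes were chosen on that contrast.

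The genes whose pattern over the 5 arrays was closest to that of Igf1r were taken by the distance between log2 levels after each was centred on its own mean. They were Ckmt2, a mitochondrial creatine kinase gene, at a distance of 0.594; Pkib, an inhibitor gene of protein kinase A, at 0.670 and, by its other probe set, 0.748; Ly6l at 0.700; the gluconeogenic enzyme gene Fbp1 at 0.717; and Igfbp3 itself at 0.774. Ckmt2 read 395 and 485 in set 5-3, 924 and 1129.9 in set 1-1, and 147 in the parental line. Irs2 lay closest to Nars1, a gene for asparaginyl-tRNA synthetase, at 0.110. Nars1 read 3126 and 3661 in set 5-3, 4193 and 5070.4 in set 1-1, and 2779 in the parental line. The nearest to Igfbp3 was Leng1 at 0.377 and the nearest to Igf2r, by its brighter probe set, was the kinase gene Csnk1d at 0.0397. The distances rest on 5 arrays and only describe them.

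The other genes of the pathway came from 10 lists by role, 113 genes beside the members, of which 90 had a probe set and 70 were bright enough to test. Between the clone sets limma called 1 of these 70 higher in set 5-3 and 0 lower, where 0.221% and 0.200% of all tested probe sets were called. Of the 70, 13 had an unadjusted p under 0.05, a share near the 14.8% of all tested probe sets. Both set 5-3 clones were above both set 1-1 clones for 15 genes and below for 14, beside 22.1% and 24.5% of all tested probe sets. The median log2 difference of the lists was 0.08 beside −0.04 over all tested probe sets.

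**Figure D3:**
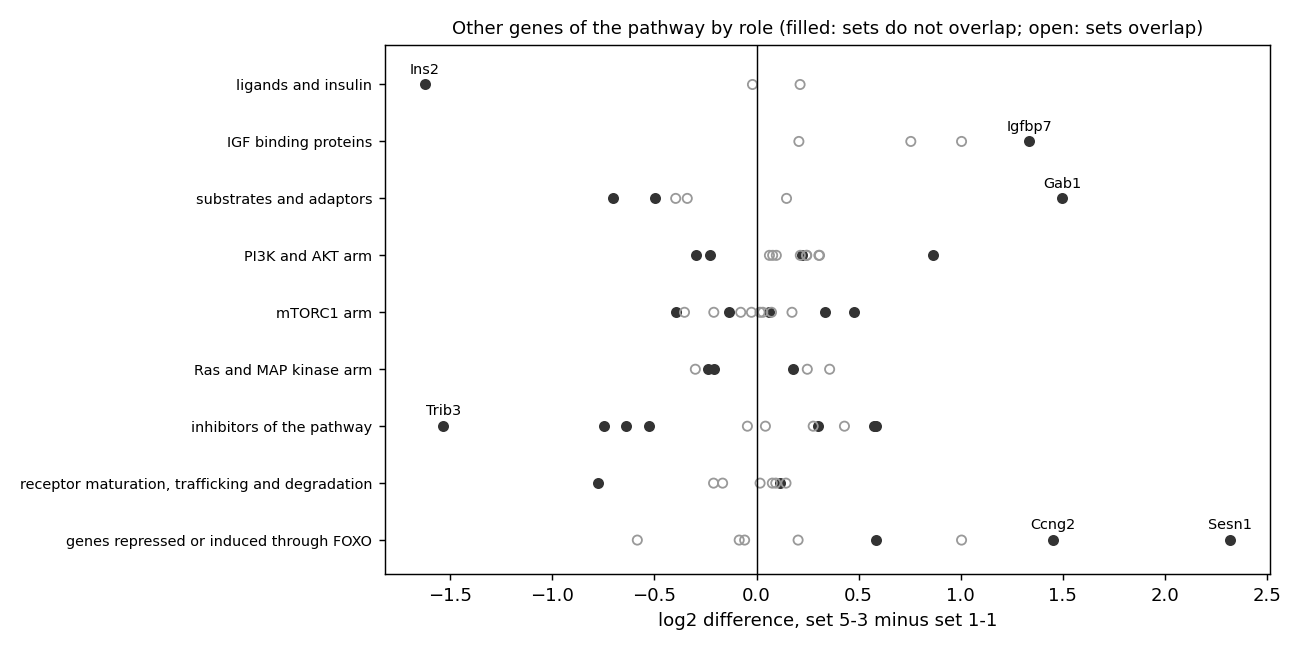
Log2 difference between the clone sets (horizontal axis, set 5-3 minus set 1-1) for the tested genes of each list, 1 point per gene; filled points are genes whose sets do not overlap and open points those that overlap. Sesn1 (2.32), Gab1 (1.497), Ccng2 (1.46) and Igfbp7 (1.34) stand to the right, and Ins2 (−1.62) and Trib3 (−1.53) to the left.

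The called gene was Igfbp7, which encodes a secreted protein related to the IGF binding proteins. It read 7871 in 5-3.14 and 8048 in 5-3.19, 2984 in 1-1.2 and 3297 in 1-1.16, and 4389.9 in the parental line, so that the sets lay on opposite sides of the parental array. The log2 difference was 1.34 ± 0.19 (SE, limma adjusted p = 0.0493), close to the threshold. The call was lost with an offset 4 times smaller (adjusted p = 0.0504), with no brightness limit (0.0939), with no intensity trend (0.0783), without 1-1.2 (0.113) and without 1-1.16 (0.107). Its direction is opposite to that of Igfbp3. Of the 7 measured IGF binding protein genes beside Igfbp3, 4 were tested and 1, Igfbp7, was called. Igfbp1 and Igfbp2, named after their values were seen, differed widely within set 5-3, whose clones lay above and below both set 1-1 clones: Igfbp1 read 64.9 in 5-3.14 and 2161 in 5-3.19, 174 and 218 in set 1-1, and 940.0 in the parental line, and Igfbp2 read 489.6 in 5-3.14 and 3262 in 5-3.19, 520.5 and 2301 in set 1-1, and 2921 in the parental line. Igfbp4 read 245 and 230.5 in set 5-3, 67.3 and 243 in set 1-1, and 278 in the parental line.

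Of the ligand genes, 0 of 3 tested were called. Ins2 read 3953 and 4303 in set 5-3, 30224 and 5381 in set 1-1, and 28816 in the parental line, and its log2 difference of −1.62 ± 0.70 (SE) between the sets rested on 1-1.2 (limma adjusted p = 0.349). Igf2 read 3896 and 5857 in set 5-3, 5015 and 3379 in set 1-1, and 6575 in the parental line by its brightest probe set, and its other 3 probe sets were below 62 on every array. Igf1 was below the brightness limit, and its level was highest in 5-3.14 (195 by the brighter probe set, against 63.4 in 5-3.19, 72.1 and 78.3 in set 1-1, and 37.7 in the parental line).

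Among substrates and adaptors, 0 of 6 tested genes were called. Gab1, a docking protein gene, read 292 and 577 in set 5-3, 81.7 and 206 in set 1-1, and 217 in INS-1 (log2 difference 1.497 ± 0.48, SE, limma adjusted p = 0.218). The adaptor genes Nck1 and Sh2b1 had log2 differences of −0.70 and −0.50. In the PI3K and AKT arm 0 of 12 were called, and 2 lay above and 2 below set 1-1 in both set 5-3 clones, beside 22.1% and 24.5% of all tested probe sets. Foxo3, which encodes a FOXO transcription factor, read 1173 and 1008 in set 5-3, 623 and 555 in set 1-1, and 685 in INS-1 (0.86 ± 0.23, limma adjusted p = 0.168). The kinase gene Gsk3b and the PI3 kinase subunit gene Pik3r3 had log2 differences of −0.30 and −0.23. The mTORC1 arm had 0 of 13 called, with log2 differences of 0.48 for Tsc1, 0.33 for Tsc2 and −0.39 for Akt1s1. A dimmer tested probe set of Akt1s1 had the opposite sign, 0.13. The Ras and MAP kinase arm had 0 of 6 called, with log2 differences of −0.24 for Map2k2, −0.21 for Araf and 0.18 for Map2k1.

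**Figure D4:**
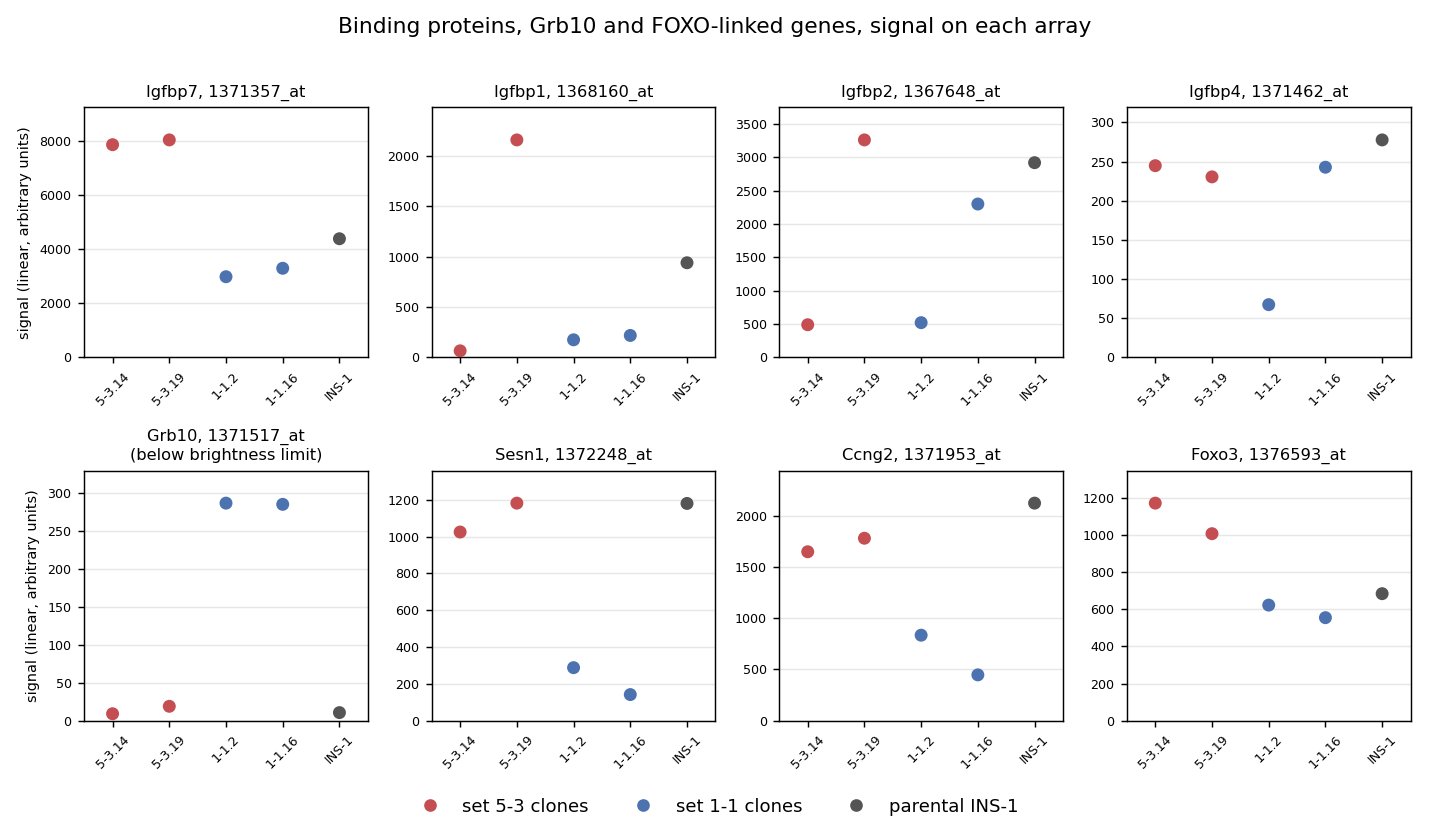
Signal of binding protein genes, Grb10 and FOXO-linked genes on each of the 5 arrays (vertical axes, linear arbitrary units from 0; 1 point per array; red, set 5-3 clones; blue, set 1-1 clones; grey, parental INS-1). Grb10 is near 285 in both set 1-1 clones and under 19 on the other arrays, and Sesn1 and Ccng2 are lowest in the set 1-1 clones.

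The list drawn up for inhibitors of the pathway had 0 of 11 tested members called and 5 with an unadjusted p under 0.05 (limma). Of all tested probe sets, 0.420% and 14.8% were so. Both set 5-3 clones were above both set 1-1 clones for 3 of the 11 and below for 4, beside 22.1% and 24.5% of all. The 3 above, named after their values were seen, were Grb14 (log2 difference 0.59), Ptpn1 (0.58) and Ptprf (0.30). The 4 below were Trib3, Ddit4, Ptpn2 and, also named after its values were seen, the phosphatase gene Ptpn11 (−0.53). Ptpn11 was also among the 5. Its place on this list was a choice, and a restraining role was not tested. Trib3, a pseudokinase that binds AKT, read 344.5 and 142 in set 5-3, 355.5 and 1314 in set 1-1, and 179 in INS-1 (log2 difference −1.53 ± 0.64, SE, limma adjusted p = 0.330). Ddit4, an inhibitor of mTORC1, read 462 and 535.5 in set 5-3, 859 and 842 in set 1-1, and 848 in INS-1 (−0.75 ± 0.23, limma adjusted p = 0.206), and the phosphatase gene Ptpn2 differed by −0.64. Grb10, an adaptor that binds and restrains the insulin and IGF1 receptors, was below the brightness limit on average and is named after its values were seen. It read 9.0 and 18.8 in set 5-3, 286 and 285 in set 1-1, and 10.5 in the parental line. The 3 low signals are under the offset of 21.8, so no fold is given; with no brightness limit the difference had an unadjusted p of 8.78e-05 and an adjusted p of 0.0774 (limma).

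The list of genes linked to FOXO, which raises the expression of some of them when insulin signalling is low, had 0 of 8 tested members called and 3 that were higher in both set 5-3 clones, beside 22.1% of all tested probe sets. Sesn1, a stress-response gene, read 1026 and 1183 in set 5-3, 288 and 141 in set 1-1, and 1181 in the parental line. Its log2 difference was 2.32 ± 0.34 (SE, limma adjusted p = 0.0533). It passed with median centring (limma adjusted p = 0.0434) and with an offset 4 times larger (0.0455), but not with no brightness limit (0.130). Leaving out 1 clone gave a log2 difference of 1.86 to 2.78. The cyclin gene Ccng2 read 1650.0 and 1782 in set 5-3, 835 and 447 in set 1-1, and 2126 in INS-1 (1.46 ± 0.32, limma adjusted p = 0.125). For both genes the set 5-3 clones stood near the parental line and the set 1-1 clones below it, as for Insr. The catalase gene Cat differed by 0.58. Genes of receptor maturation, trafficking and degradation had 0 of 8 called, with Mdm2, a ubiquitin ligase gene, at −0.78 and M6pr, the other mannose 6-phosphate receptor gene, at 0.12.

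Against the parental line limma called 0 of the 70 list genes and 0 of all 9520 probe sets, of which 349 (3.67%) had an unadjusted p under 0.05. All 4 clones were above the parental array for 11 of the 70 and below it for 17, beside 18.4% and 19.7% of all tested probe sets. Up to 2 tested genes of each list are named here, chosen among those whose 4 clones all lay above or all below INS-1 as having the largest difference in the clone nearest to it. With the mean log2 difference of the clones from the parental line, those on the low side were Sh2b2 (−0.98), the cell death gene Bcl2l11 (−0.85), the cell cycle inhibitor gene Cdkn1b (−0.85), the lysosomal protease gene Ctsd (−0.73), Igfbp4 (−0.59), Igf2 (−0.57), Map2k1 (−0.49), Foxo1 (−0.46), Grb2 (−0.39) and Gsk3b (−0.35). Those on the high side were the cytokine signalling inhibitor genes Cish (0.67) and Socs2 (0.56), Araf (0.49), M6pr (0.36), the ribosomal protein gene Rps6 (0.33) and Rptor (0.24). None of them passed the test. Other probe sets differed in sign for Araf (−0.32, tested) and Grb2 (0.08, below the brightness limit) against the parental line and, between the clone sets, for Igf2 (−0.25), Foxo1 (−0.21 and −0.09), Foxo3 (−0.09) and Bcl2l11 (0.10), all below the limit.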

How the data were processed

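Total RNA of 5 cell lines was hybridised to single-colour rat arrays. The deposited values are signal intensities on a linear scale, 1 for each probe set on each array, judged from the values. How the authors made them is not given in the sources used here. In all, 57 control probe sets were left out. Of 15866 probe sets, 12783 had 1 gene symbol, 312 several and 2771 none; by gene number, 12748 of the 12783 were found in the GRCr8 gene table, with no change of symbol. Levels were log2(signal + 21.8), the offset being the 10th percentile of positive signals, so differences of dim genes are understated. Probe sets at or above the 40th percentile of mean level (signal of about 194) were tested with limma 3.58.1 in R 4.3.3 (lmFit, eBayes with an intensity trend) and Benjamini-Hochberg adjustment over all 9520, at a threshold of 0.05. Set 5-3 minus set 1-1 came from a fit with 3 groups (2 residual degrees of freedom) and the clones minus the parental line from a fit with 2 groups (3 residual degrees of freedom), which gives the parental array the spread of the clones. Both comparisons share the clone arrays. The p-values measure only the spread between these clones.

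The members and lists were chosen with earlier results of these data known. Each list gene was represented by its brightest probe set. Named were the members, list genes called between the sets, up to 3 per list with the largest difference among non-overlapping sets, up to 2 per list whose clones all lay above or all below INS-1, by the difference of the nearest clone, the 6 probe sets nearest to Igf1r and up to 3 nearest to each other member; other names are marked. The fits were also run on simulated data with known shifts and independent normal noise. That noise follows the model of the fit, so nothing is concluded from it about how real clones vary. Alternatives changed the scaling, the offset, the brightness limit, the trend and the clones; a fit to the clone arrays alone was added after the data were seen.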

Additional observations from a re-analysis of the deposited data

Results flagged for a closer look

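Among the 42 probe sets of members and named list genes, 3 had 1 clone far from the other 3 on the log2 scale, by a gap past Dixon's critical value; chance flags about 1 group in 20. Irs1 was high in 1-1.16 (gap 0.894 of the range). Ins2 was high in 1-1.2 (0.849), and Igfbp4 was low there (0.950).

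Igfbp7 was flagged for the difference between the sets already given, 1.34 on the log2 scale (limma adjusted p = 0.0493). Relative to the parental array it stood at 0.86 in set 5-3 and −0.48 in set 1-1, which was not tested. Among the named genes, 9 more had the pattern that both clones of a set lay above the parental array and both of the other set below it. All 9 were named for a large difference between sets that do not overlap, which favours this pattern. Its share over all tested probe sets was not counted, so nothing is read from this number. The set 5-3 clones were the higher ones for Gab1 (log2 difference 1.497), Foxo3 (0.86), Cat (0.58), Tsc1 (0.48) and Tsc2 (0.33), and the lower ones for Mdm2 (−0.78), Nck1 (−0.70), Sh2b1 (−0.50) and Akt1s1 (−0.39). None of these 9 passed limma's test of the difference (adjusted p from 0.168 for Foxo3 to 0.573 for Tsc2). The pattern is that of each gene's brightest probe set. A dimmer tested probe set of Sh2b1 did not have it. That one read 351 and 400 in set 5-3, 384 and 496 in set 1-1, and 342 in the parental line. For Akt1s1 a dimmer tested probe set had the opposite sign, as given above.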

How the results depend on the processing

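The 6 tested member probe sets kept the direction of their difference between the clone sets under the 7 alternatives of scaling, offset, brightness limit and trend, with none called; Igf1r ranged from −0.73 to −0.69 there (adjusted p 0.197 to 0.236). Fitted to the clone arrays alone, 0 members and 41 probe sets in all were called. Leaving out 1 clone gave −0.78 to −0.67 for Igf1r and −0.67 to −0.39 for Irs2. For Igfbp3 it gave −1.40 to −1.10 and −2.15 to −1.42, and for Igf2r −0.22 to −0.10 and −0.25 to 0.0628. Igfbp3 was the only member gene called in any of these fits, which leave 1 clone in a set. The brighter Igf2r probe set reversed to 0.0628 without 5-3.19. The list genes called, 1 as reported, numbered 2 with median centring or a larger offset and 0 with a smaller offset, no brightness limit or no trend, and 1 to 3 without 1 clone. Over all probe sets 40 were called as reported, 70 with median centring, 10 with no brightness limit, and 50 to 224 without 1 clone. Against the parental line 0 were called throughout. Among list genes whose difference changed sign without 1 clone, the ranges were −0.0792 to 0.51 for Igf2, −0.0289 to 1.54 for Igfbp4, −1.02 to 0.34 for Sh2b2, −0.10 to 0.0548 for Rptor, −0.0302 to 0.89 for Cish, −0.13 to 0.68 for Socs2, −0.51 to 0.0902 for Ctsd, −0.17 to 0.0506 for Bcl2l11 and −1.17 to 0.0028 for Cdkn1b. Rptor also turned to 0.0112 with median centring. Fits with fewer clones or more probe sets also differ in their construction, and what moved their counts was not tested. No paired analysis was possible because the labels give no numbers that pair clones of different sets. With 2 clones per set and 1 parental array, differences of the size of Irs2 missed the threshold after adjustment over all probe sets, and signals near the offset, as for Irs1, have little measured order.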

Other observations

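Some genes of the pathway set a single clone apart from others. They are given as values, named after these were seen. Igf1 read 266 in 5-3.14 by its dimmer probe set, against 13.1 in 5-3.19, 14.6 and 18.2 in set 1-1, and 10 in the parental line, the same clone in which its other probe set was highest. Igfbp5 read 597 in 5-3.14, against 141 in 5-3.19, 110 and 53.8 in set 1-1, and 76.5 in the parental line by its brightest probe set, while its other 2 were at 50.3 or less on every array. The ectoenzyme gene Enpp1 read 16.8 in 5-3.14, against 123 in 5-3.19, 344.5 and 132 in set 1-1, and 352 in the parental line. The 3 probe sets of Trib3 all had their highest signal in 1-1.16, at 1314, 691 and 423.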
